A study of Mus musculus with 6 samples.

Results

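Hepatocyte transcription factors are the DNA-binding proteins that switch on and maintain the liver gene programme. The genes described here are the 8 listed factors Hnf4a, Foxa1, Foxa2, Foxa3, Cebpa, Onecut1, Nr5a2 and Nr1i3, taken by name from a table of 55291 genes, and all 8 were found and tested. They were measured by sequencing of polyadenylated RNA in 6 bulk mouse liver tumours, in 2 groups of 3. The MKO_PD1 tumours came from Trem2-MKO mice, in which the lipid receptor Trem2 is deleted in myeloid cells, and the Cre_PD1 tumours came from LysM-Cre mice, a control that carries the Cre recombinase under the lysozyme M promoter, which works in myeloid cells. Tumours of both groups were RIL-175/PD-1R tumours, and both groups of mice were treated with anti-PD-1. RIL-175 is a mouse hepatocellular carcinoma line, so each tumour descends from a single line of liver origin, and PD-1R is not spelled out in the labels. The labels state no age, sex or Trem2 allele, and no tumour without anti-PD-1 was analysed here. The design text counts 3 mice in each group, and nothing in the labels says whether tumours were pooled. The comparison asks what loss of Trem2 from myeloid cells does to the tumour transcriptome under anti-PD-1.

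In hepatocytes these factors form a network in which many of them bind regulatory DNA of the others. FOXA proteins carry a forkhead domain and open compacted chromatin at liver enhancers, HNF4A is the nuclear receptor that holds the mature hepatocyte state, and C/EBPalpha and Onecut1 act with them on metabolic and plasma protein genes. Nr5a2 and Nr1i3 encode nuclear receptors for bile acid and foreign-compound metabolism. Several of the factors are also expressed outside hepatocytes, Foxa1, Foxa2 and Onecut1 in bile duct cells, Cebpa in myeloid cells and fat, and Hnf4a, Foxa3 and Nr5a2 in gut or pancreas.

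Levels are in transcripts per 1000000 (TPM), a read count per length of exon scaled to that total in each library. The libraries held from 26747236 to 34264909 recovered reads, and for each kb of exon the worth of 1 read lay between 0.0763 and 0.114 TPM. The targeted gene Trem2 was at 7.68, 17.97 and 6.81 TPM in MKO_PD1 replicates 1, 2 and 3, against 10.5, 16.5 and 14.9 TPM in Cre_PD1 replicates 1, 2 and 3 (limma adjusted p = 0.432). Replicates 1 and 3 of MKO_PD1 lay below every Cre_PD1 tumour, while replicate 2 lay above every one of them. Replicate 2 is called the library labelled MKO_PD1 replicate 2 from here on. These are whole-gene values in bulk tumour, and the exons of the deletion are not stated. The same library held the most myeloid marker RNA. The 10 neutrophil and macrophage markers summed to 1220, 3300 and 1470 TPM in MKO_PD1 replicates 1, 2 and 3. In Cre_PD1 replicates 1, 2 and 3 they summed to 789, 1210 and 1260 TPM. The part of myeloid content in the Trem2 values was not tested, so the Trem2 level does not show whether the label is right. Libraries differed in hepatocyte RNA: 20 hepatocyte markers took 20.3, 5.31 and 14.7% of TPM in MKO_PD1 replicates 1, 2 and 3, against 2.30, 4.19 and 4.20% in Cre_PD1 replicates 1, 2 and 3. In hepatocyte RNA, the library labelled MKO_PD1 replicate 2 thus lay near the Cre_PD1 tumours and apart from the other 2 MKO_PD1 tumours. In myeloid marker RNA it lay above all the others. In bulk tumour RNA, fewer cells of a type and less RNA per cell cannot be told apart. The median log2 difference of all 16506 tested genes, MKO_PD1 minus Cre_PD1, was -0.42 on this scale and 0.006 with median-of-ratios scaling, so the sign of small differences depends on the scaling.

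The 8 factors did not move as a block. Foxa3, Nr5a2 and Nr1i3 were higher in each MKO_PD1 tumour than in any Cre_PD1 tumour, and Foxa2 was lower in each MKO_PD1 tumour than in any Cre_PD1 tumour, though its groups overlapped with median-of-ratios scaling. Cebpa, Hnf4a and Onecut1 were high in MKO_PD1 replicates 1 and 3 only, and Foxa1 overlapped between the groups. The median log2 difference of the 8 was 1.15, against -0.42 for all tested genes. With limma p-values adjusted by Benjamini-Hochberg across the whole table, 0 of the 8 passed 0.05, where 2 of 16506 genes (0.0121%) did, 1 higher (0.00606%) and 1 lower (0.00606%). At an unadjusted p under 0.05 there were 4 of the 8 higher and 1 lower, where 8.47% of all genes were higher and 19.5% lower. Groups that did not overlap were found for 3 factors higher and 1 lower, where 10.1% of all genes did so in the higher direction and 28.9% in the lower.

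**Figure D1:**
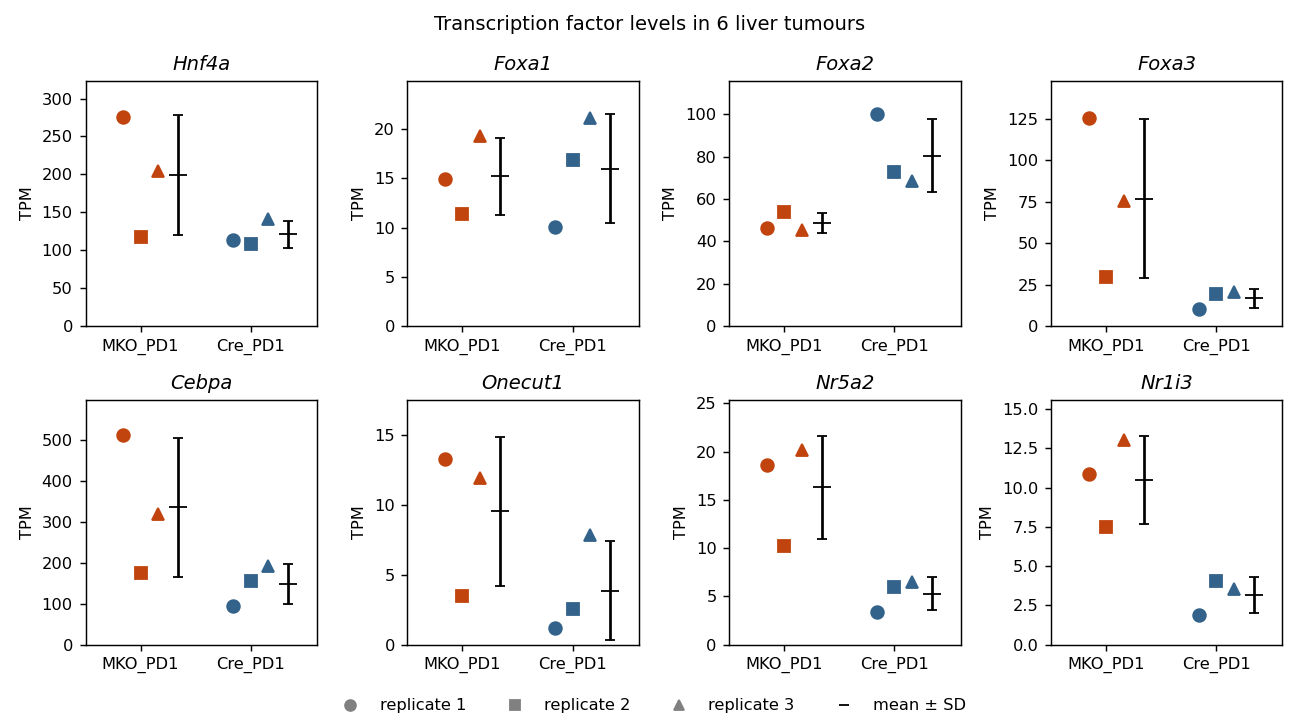
Level of each transcription factor in TPM (vertical axis, from 0) in the 3 MKO_PD1 and 3 Cre_PD1 tumours, with point shape giving the replicate number and the black bar the mean ± SD. The library labelled MKO_PD1 replicate 2 (square) is the lowest of its group for 7 of the 8 genes and the highest for Foxa2, at 54.0 TPM.

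The FOXA factors, the forkhead pioneer proteins, divided between themselves. Foxa3 (ENSMUSG00000040891.6, chromosome 7, 19013284 to 19023538, minus strand, build GRCm38, which is also called mm10), which acts on metabolic genes of the adult liver, was at 126, 29.4 and 75.4 TPM in MKO_PD1 replicates 1, 2 and 3, against 10.3, 19.2 and 20.7 TPM in Cre_PD1 replicates 1, 2 and 3. The groups did not overlap, and MKO_PD1 replicate 1 stood above the rest. The log2 difference of Foxa3 was 1.96 (SE 0.53), a 3.90-fold higher level, with a limma adjusted p = 0.168 and an exact two-sided permutation p = 0.1, the smallest that 3 against 3 allows. It rested on 599 to 3354 reads in MKO_PD1 and 213 to 470 reads in Cre_PD1.

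Foxa2 (ENSMUSG00000037025.11, chromosome 2, 148042877 to 148046969, minus strand), which acts in early liver specification and in fasting and bile acid metabolism, ran the other way. It was at 46.5, 54.0 and 45.5 TPM in MKO_PD1 replicates 1, 2 and 3, against 100, 72.7 and 68.7 TPM in Cre_PD1 replicates 1, 2 and 3. All 3 MKO_PD1 tumours lay below all 3 Cre_PD1 tumours and varied little among themselves. The log2 difference was -0.70 (SE 0.25; limma adjusted p = 0.168; exact permutation p = 0.1). Relative to all genes the difference was smaller: against the all-gene median the difference was -0.28, and with median-of-ratios scaling it was -0.20 and the groups overlapped. Foxa1 (ENSMUSG00000035451.7, chromosome 12, 57540628 to 57546916, minus strand), the third pioneer factor, was at 14.9, 11.4 and 19.3 TPM in MKO_PD1, against 10.1, 16.8 and 21.1 TPM in Cre_PD1. Its log2 difference of -0.04 (95% interval -0.85 to 0.76; limma adjusted p = 0.936) leaves room for a change in either direction and was 0.44 with median-of-ratios scaling.

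As a share of summed Foxa TPM, which does not depend on scaling, Foxa3 made up 67.2, 31 and 53.8% in MKO_PD1 replicates 1, 2 and 3, against 8.54, 17.7 and 18.8% in Cre_PD1 replicates 1, 2 and 3. Foxa2 made up 24.9, 56.9 and 32.5% in MKO_PD1, against 83.1, 66.8 and 62.1% in Cre_PD1. Foxa2 was the main Foxa transcript in every Cre_PD1 tumour and in the library labelled MKO_PD1 replicate 2, while Foxa3 was the main one in MKO_PD1 replicates 1 and 3. The share was chosen after the values were seen and was not tested. Summed Foxa TPM was 187, 94.8 and 140 in MKO_PD1 and 120, 109 and 110 in Cre_PD1.

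The promoter windows of the Foxa genes show the bases around the starts of the 3 genes whose balance differed. Each runs from 250 bases before to 50 bases after the RefSeq transcript start (GRCm38.p6), is printed 5′ to 3′ on the gene's strand, and has any searched motif in capitals. The windows are chr12:57546062-57546361 for Foxa1, chr2:148046920-148047219 for the most upstream of the 3 Foxa2 starts and chr7:19023490-19023789 for Foxa3, all on the minus strand.
Foxa1: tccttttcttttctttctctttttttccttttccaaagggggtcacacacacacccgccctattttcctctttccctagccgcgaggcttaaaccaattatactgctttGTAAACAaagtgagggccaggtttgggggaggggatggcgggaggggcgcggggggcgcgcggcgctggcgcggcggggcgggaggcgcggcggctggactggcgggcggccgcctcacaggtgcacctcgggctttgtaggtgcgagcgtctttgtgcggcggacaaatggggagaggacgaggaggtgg
Foxa2: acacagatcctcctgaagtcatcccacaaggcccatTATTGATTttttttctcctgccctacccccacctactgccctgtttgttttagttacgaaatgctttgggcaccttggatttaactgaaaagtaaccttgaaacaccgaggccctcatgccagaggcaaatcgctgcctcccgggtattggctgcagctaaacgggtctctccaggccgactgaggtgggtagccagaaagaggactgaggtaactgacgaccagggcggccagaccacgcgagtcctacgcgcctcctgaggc
Foxa3: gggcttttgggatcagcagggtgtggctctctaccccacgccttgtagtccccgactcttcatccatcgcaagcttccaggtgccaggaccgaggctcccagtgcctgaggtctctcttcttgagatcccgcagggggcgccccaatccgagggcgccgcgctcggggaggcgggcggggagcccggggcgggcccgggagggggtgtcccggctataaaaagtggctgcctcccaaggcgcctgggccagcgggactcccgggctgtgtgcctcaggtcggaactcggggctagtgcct
Foxa1 held the forkhead motif TGTTTAC on its opposite strand, beginning 141 bases upstream of its start, a motif found in 3.65% of all 32851 windows. Foxa2 held the Onecut motif AATCAATA on its opposite strand, beginning 214 bases upstream, found in 0.755% of windows. Foxa3 held none of the motifs searched here and was 69.0% G and C, against 62.3% for Foxa1 and 54.3% for Foxa2.

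Hnf4a (ENSMUSG00000017950.16, chromosome 2, 163506808 to 163572910, plus strand) was at 276, 117 and 205 TPM in MKO_PD1 replicates 1, 2 and 3, against 114, 109 and 141 TPM in Cre_PD1 replicates 1, 2 and 3. The library labelled MKO_PD1 replicate 2 fell inside the Cre_PD1 range, so the groups overlapped. The log2 difference was 0.64 (SE 0.35; limma adjusted p = 0.229; exact permutation p = 0.2). Highest and lowest tumour differed 2.36-fold in MKO_PD1 and 1.30-fold in Cre_PD1. The gene has 2 starts in RefSeq. The upstream one is known as P2 and is used in embryonic liver, gut and pancreatic islets, and the downstream one is known as P1 and dominates in adult hepatocytes. The deposited values sum both, so the start in use was not read here.

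Both Hnf4a windows are given because the gene's level mixes their output, the upstream one at chr2:163506607-163506906 and the downstream one at chr2:163546905-163547204, on the plus strand with motifs in capitals as before.
Hnf4a upstream start: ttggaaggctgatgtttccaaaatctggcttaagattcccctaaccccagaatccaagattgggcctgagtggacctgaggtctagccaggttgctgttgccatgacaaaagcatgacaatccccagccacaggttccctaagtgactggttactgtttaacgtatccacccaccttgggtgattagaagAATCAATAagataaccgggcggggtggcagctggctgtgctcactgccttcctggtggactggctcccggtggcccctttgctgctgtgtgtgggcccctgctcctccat
Hnf4a downstream start: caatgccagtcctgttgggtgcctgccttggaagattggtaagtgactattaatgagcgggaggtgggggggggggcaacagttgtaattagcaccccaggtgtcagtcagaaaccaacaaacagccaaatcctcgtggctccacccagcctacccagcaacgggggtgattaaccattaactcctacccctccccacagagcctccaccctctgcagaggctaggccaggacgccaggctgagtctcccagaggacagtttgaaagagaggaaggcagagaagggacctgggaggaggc
The upstream window held the Onecut motif AATCAATA beginning 60 bases before the start, and the downstream window held none of the motifs searched. For the factors themselves the letters were TGTTTAC and TGTTTGC for FOXA, CAAAGTCCA and CAAAGGTCA for HNF4A, TTGCGCAA and TTGCACAA for C/EBP, ATCGAT and AATCAATA for Onecut and CAAGGTCA for NR5A2, on both strands. These were present in 3.65 and 5.07%, 0.475 and 0.478%, 0.183 and 1.01%, 0.925 and 0.755%, and 1.56% of all windows, in that order. RefSeq gave 12 windows for the 8 genes, and 3 of them, those of Foxa1, Foxa2 and the upstream Hnf4a start, held one of these motifs. No motif was searched for Nr1i3, and a match is a description of letters only.

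Cebpa (ENSMUSG00000034957.10, chromosome 7, 35119293 to 35121928, plus strand) encodes a leucine zipper factor that stops hepatocyte division and drives glucose and nitrogen metabolism. It was the most abundant of the 8 by mean, at 512, 176 and 318 TPM in MKO_PD1 replicates 1, 2 and 3, against 95.2, 156 and 192 TPM in Cre_PD1 replicates 1, 2 and 3. The library labelled MKO_PD1 replicate 2 lay below the highest Cre_PD1 tumour. The log2 difference was 1.103 (SE 0.44; limma adjusted p = 0.169; exact permutation p = 0.2). Cebpa is also a myeloid gene, and 9 of the 10 neutrophil and macrophage markers were tested, all with a log2 difference above 0. Of them 6 had separate groups, where 10.1% of all genes were separate and higher. The 10 markers summed to 0.122, 0.330 and 0.147% of TPM in MKO_PD1 replicates 1, 2 and 3, against 0.0789, 0.121 and 0.126% in Cre_PD1. The highest myeloid sum stood in the library labelled MKO_PD1 replicate 2, the one of its group with the least Cebpa, and the part of myeloid cells in the Cebpa values was not tested. Of the adipocyte markers, Plin1 and Lep were at 0 in all 6 tumours, and the 6 markers together took at most 0.000515% of TPM in MKO_PD1 and 0.000371% in Cre_PD1.

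Onecut1 (ENSMUSG00000043013.10, chromosome 9, 74861921 to 74891781, plus strand), also called HNF6, acts in hepatocyte and bile duct development. It was at 13.3, 3.46 and 11.9 TPM in MKO_PD1 replicates 1, 2 and 3, against 1.17, 2.55 and 7.85 TPM in Cre_PD1 replicates 1, 2 and 3. Both groups were widely spread, 3.85-fold from lowest to highest in MKO_PD1 and 6.70-fold in Cre_PD1, and they overlapped. The log2 difference was 1.20 (SE 0.63; limma adjusted p = 0.217; exact permutation p = 0.2). The annotated lincRNA gene Gm20649, a readthrough transcript on the same strand, covers 52.8% of the Onecut1 exon bases and had 0 reads in all 6 libraries, and how reads on shared bases were assigned is not given in the sources used here.

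Nr1i3 and Nr5a2 were the factors of smallest p. Nr5a2 (ENSMUSG00000026398.14, chromosome 1, 136842571 to 136960448, minus strand), whose product LRH-1 controls bile acid synthesis and reverse cholesterol transport, was at 18.6, 10.2 and 20.2 TPM in MKO_PD1 replicates 1, 2 and 3, against 3.35, 5.93 and 6.52 TPM in Cre_PD1 replicates 1, 2 and 3. The groups did not overlap, and the log2 difference was 1.45 (SE 0.37; limma adjusted p = 0.168; exact permutation p = 0.1). Nr1i3 (ENSMUSG00000005677.14, chromosome 1, 171213970 to 171220701, plus strand), the gene of the foreign-compound sensor CAR, was at 10.9, 7.48 and 13.1 TPM in MKO_PD1, against 1.89, 4.06 and 3.54 TPM in Cre_PD1. All 3 MKO_PD1 tumours lay above all 3 Cre_PD1 tumours, and the log2 difference was 1.47 (SE 0.35; limma adjusted p = 0.168; exact permutation p = 0.1). Nr1i3 had the smallest unadjusted p of the 8, 0.00294, followed by Nr5a2 at 0.00434 and Foxa3 at 0.00571.

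The level of Nr1i3 carries a limit of annotation. Its exons share 74.9% of their bases with Tomm40l, a mitochondrial import gene on the opposite strand, and no source used here says whether counting used strand. Tomm40l was at 4.63, 8.46 and 4.59 TPM in MKO_PD1, against 7.93, 6.91 and 6.96 TPM in Cre_PD1 (log2 difference -0.31, SE 0.32, limma adjusted p = 0.492). Its counted reads did not follow those of Nr1i3. How reads on shared bases were assigned is not given, so this does not show what the overlap did to the Nr1i3 values. The Nr1i3 values rest on 628, 330 and 609 reads in MKO_PD1 and 85, 215 and 137 reads in Cre_PD1.

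By mean level per exon length, the order in MKO_PD1 was Cebpa (335 ± 169 TPM), Hnf4a (199 ± 79.5), Foxa3 (76.8 ± 48.1), Foxa2 (48.6 ± 4.64), Nr5a2 (16.3 ± 5.36), Foxa1 (15.2 ± 3.93), Nr1i3 (10.5 ± 2.80) and Onecut1 (9.54 ± 5.32 TPM; SD, n = 3). In Cre_PD1 it was Cebpa (148 ± 48.8 TPM), Hnf4a (121 ± 17.6), Foxa2 (80.4 ± 17.1), Foxa3 (16.7 ± 5.64), Foxa1 (16 ± 5.55), Nr5a2 (5.27 ± 1.68), Onecut1 (3.86 ± 3.53) and Nr1i3 (3.16 ± 1.13 TPM; SD, n = 3). Of the neighbours in the MKO_PD1 order, only Foxa2 and Nr5a2 had ranges that did not overlap. In Cre_PD1 the ranges were apart for Hnf4a and Foxa2, for Foxa2 and Foxa3, and for Foxa1 and Nr5a2, and the other neighbours overlapped. Each of these orders describes RNA levels and takes no account of the shared exon bases of Nr1i3 and Onecut1.

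**Figure D2:**
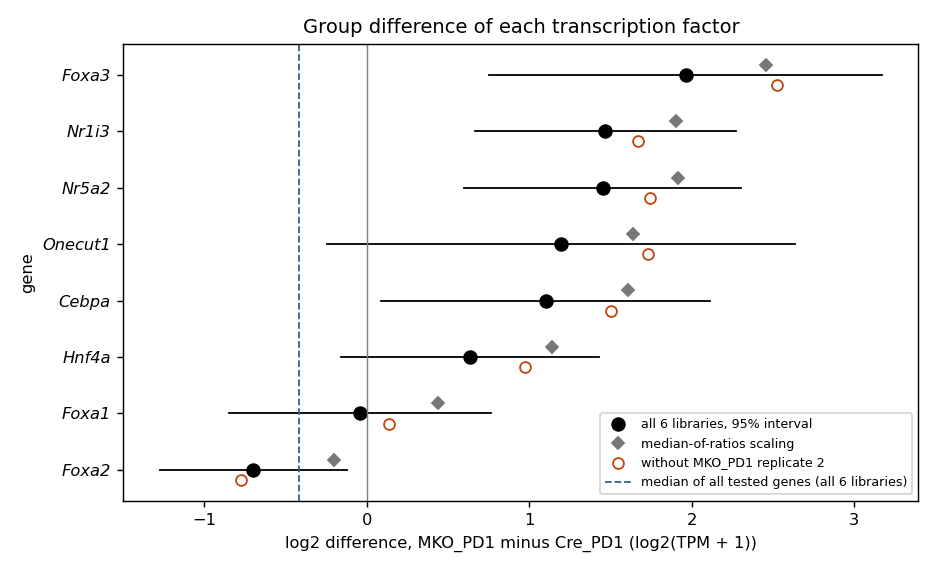
Log2 difference of each transcription factor, MKO_PD1 minus Cre_PD1 on log2(TPM + 1) (horizontal axis), with its 95% interval (black), the value with median-of-ratios scaling (grey diamond) and the value without the library labelled MKO_PD1 replicate 2 (open circle). The dashed line is the all-gene median of -0.42, and of the black points only that of Foxa2, at -0.70, lies below it.

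The MKO_PD1 tumour nearest to Cre_PD1 in hepatocyte RNA, though not in myeloid marker RNA, decided how many factors passed the test. Without the library labelled MKO_PD1 replicate 2, whose Trem2 level is above that of every Cre_PD1 tumour, 7 of the 8 factors passed, 6 higher and Foxa2 lower, where 7.82% of all genes passed as higher and 36.2% as lower. In that fit of 2 MKO_PD1 and 3 Cre_PD1 tumours, Foxa3 had a log2 difference of 2.53 (limma adjusted p = 0.0299) and Foxa2 one of -0.77 (limma adjusted p = 0.0387). Hnf4a rose by 0.97 (limma adjusted p = 0.0301) and Onecut1 by 1.73 (limma adjusted p = 0.0475) on the log2 scale, and Foxa1, at 0.14, did not pass. With the library labelled MKO_PD1 replicate 2 as the only one of its group, compared after the values were seen and with the spread taken from the Cre_PD1 tumours, Hnf4a was at -0.04 and Onecut1 at 0.12. Nr1i3 was at 1.07, Nr5a2 at 0.88 and Foxa3 at 0.84 in that comparison, and none passed.

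The factors were then set against hepatocyte RNA within each tumour, a ratio in which a library's scaling cancels apart from the pseudocount. The comparator was the mean log2 level of 20 markers, plasma protein and metabolic enzyme genes such as Fgb, Ambp and Ass1. All 20 had log2 differences above 0 and 17 had separate groups, where 10.1% of all genes were separate and higher. Their mean log2 level ran from 10.6 to 12.3 in MKO_PD1 tumours and from 8.93 to 10.3 in Cre_PD1 tumours. Foxa3 kept a near-constant distance from them: its log2 level relative to the markers was -5.55 ± 0.18 in MKO_PD1 and -5.71 ± 0.25 in Cre_PD1 (SD, n = 3 each), a difference of 0.16 (exact permutation p = 0.4). Nr5a2 and Nr1i3 differed by -0.35 and -0.33 relative to the markers and Onecut1 by -0.60, each with overlapping groups (exact permutation p = 0.4, 0.4 and 0.3).

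The other 4 factors stood lower against the markers in MKO_PD1. The markers themselves had a median log2 difference of 1.73, so any gene that rose clearly less than they did comes out lower on this ratio. Relative to the markers, Foxa2 was at -5.98 ± 1.05 in MKO_PD1 and -3.48 ± 1.05 in Cre_PD1, a difference of -2.50, and Foxa1 was at -7.62 ± 0.70 in MKO_PD1 and -5.78 ± 0.32 in Cre_PD1, a difference of -1.84. Hnf4a differed by -1.16, with -4.05 ± 0.32 in MKO_PD1 and -2.88 ± 0.72 in Cre_PD1. Cebpa differed by -0.70, with -3.34 ± 0.25 in MKO_PD1 and -2.65 ± 0.31 in Cre_PD1. For these 4 genes every MKO_PD1 tumour lay below every Cre_PD1 tumour (exact permutation p = 0.1 for each, the smallest possible). The share of all tested genes with separate groups on this ratio was not counted. By log2 difference, Cebpa, Hnf4a and Foxa1 stood above 94.2, 88.7 and 71.4% of tested genes, and Foxa2 above 29.2%. Subtracting the same marker mean keeps that order, so Cebpa, Hnf4a and Foxa1 fell less against the markers than most tested genes. The part of hepatocyte content in the levels of the factors was not tested beyond these ratios. All 8 ratios share the same markers and libraries and are not independent of each other.

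**Figure D3:**
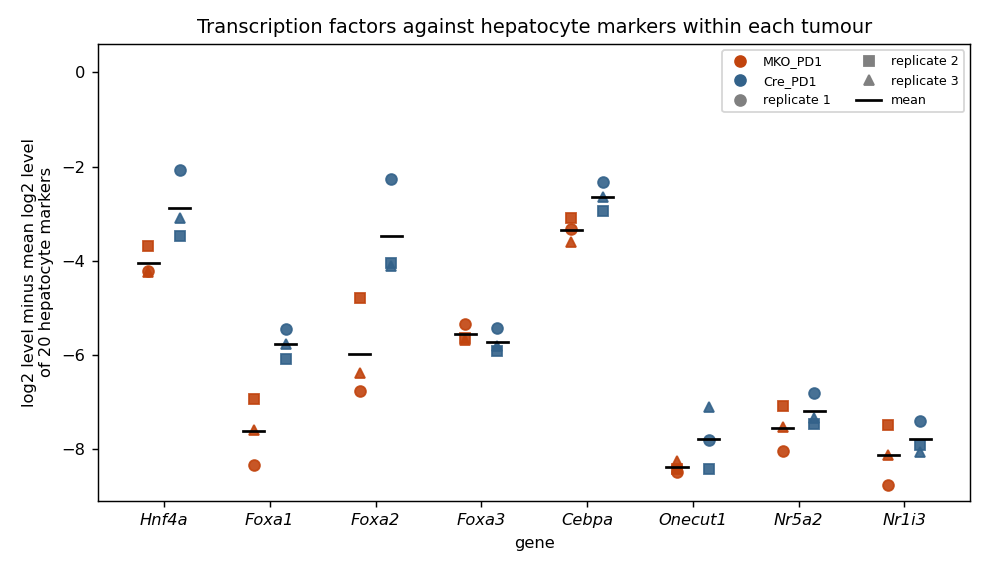
Log2 level of each transcription factor minus the mean log2 level of 20 hepatocyte markers in the same tumour (vertical axis), for MKO_PD1 (left of each pair) and Cre_PD1 (right), with the mean as a bar. Foxa3 sits near -5.6 in both groups, with means of -5.55 and -5.71, while Foxa1, Foxa2, Hnf4a and Cebpa lie lower in all 3 MKO_PD1 tumours. The markers were themselves higher in MKO_PD1, so any gene that rose clearly less than they did comes out lower here.

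Foxa2, Foxa1 and Onecut1 are also bile duct genes, and the bile duct markers tested ran in the direction of Foxa2, with Krt19 by far the most abundant. Of 8 such markers 6 were tested, and all 6 had log2 differences below 0. Of the 6, 2 had separate groups, Krt19 and Slc4a2, where 28.9% of all genes were separate and lower. The keratin gene Krt19 was at 768 ± 513 TPM in MKO_PD1 and 3200 ± 1150 TPM in Cre_PD1. The 8 summed to 0.0232, 0.131 and 0.0903% of TPM in MKO_PD1 replicates 1, 2 and 3, against 0.453, 0.295 and 0.234% in Cre_PD1, with none at 0 in all tumours. Krt19 made up 91.6 to 96.2% of that sum in MKO_PD1 and 96.2 to 98.7% in Cre_PD1: the other 7 markers summed to 19.5, 85.6 and 34.7 TPM in MKO_PD1 replicates 1, 2 and 3, against 57.2, 70.9 and 87.6 TPM in Cre_PD1, a sum taken after the values were seen, and overlapped between the groups. Of 12 transcription factors of bile duct and progenitor cells, 11 were tested, all with log2 differences below 0 and a median of -1.50. Of them 9 were separate and lower, beside the same 28.9% of all genes. Hes1, a Notch target, averaged 29.4 ± 7.62 TPM in MKO_PD1 and 82.4 ± 10.6 TPM in Cre_PD1, and the architectural factor gene Hmga2 45.1 ± 30.3 and 172 ± 67.6 TPM in those groups. Ehf and Tead2 were at 14.3 ± 13.6 and 7.59 ± 4.56 TPM in MKO_PD1 and 54.9 ± 10.2 and 20.4 ± 2.64 TPM in Cre_PD1. None passed limma over all genes. At an unadjusted p under 0.05, 8 of the 11 factors were lower, where 19.5% of all genes were. The part of bile duct or tumour cell content in the Foxa2 values was not tested.

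Of the other tissues that use these factors, pancreas acinar cells left few transcripts, while the intestinal markers differed widely in level. The pancreas acinar genes Cpb1, Pnlip, Amy2a5 and Ptf1a were at 0 in every tumour, and all 10 acinar markers took at most 0.00151% of TPM in MKO_PD1 and 0.00103% in Cre_PD1, most of it Cela1. Of the intestinal markers, Sis, the brush border sucrase, averaged 0 TPM in MKO_PD1 and 0.00372 TPM in Cre_PD1. The intestinal master factor Cdx2 was nonetheless present, at 7.55 ± 6.12 TPM in MKO_PD1 and 37.2 ± 16.2 TPM in Cre_PD1, and the villus protein gene Vil1 at 7.72 ± 7.91 TPM in MKO_PD1 and 37.4 ± 31.3 TPM in Cre_PD1, both with separate groups. The third intestinal marker tested, the fatty acid binding protein gene Fabp2, had the opposite sign, at 33.8 ± 16.9 TPM in MKO_PD1 and 15.7 ± 10.2 TPM in Cre_PD1, with overlapping groups. Mesenchymal factors had a median of -0.26 over 7 genes, which was 0.18 with median-of-ratios scaling. Twist2, at 3.38 ± 2.38 TPM in MKO_PD1 and 9.83 ± 0.69 TPM in Cre_PD1, was the 1 with separate groups. Of all genes, 28.9% were separate and lower. Endothelial and stellate cell markers had a median of 0.61 over 10 genes, with 8 above 0 and 2 below. Of the 10, 5 were separate and higher, where 10.1% of all genes were. The sinusoidal receptor gene Stab2 was among them, at 24.6 ± 10.6 TPM in MKO_PD1 and 9.08 ± 1.30 TPM in Cre_PD1. The 2 below 0 were Pdgfrb at -0.34 and Col1a1 at -0.55, named after their values were seen, both with overlapping groups.

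Among 25 other transcription factors of liver, 16 had log2 differences above 0 and 9 below (22 and 3 with median-of-ratios scaling). Of them 10 had separate groups on the higher side and 5 on the lower, where 10.1 and 28.9% of all genes did. Of the 25, 0 passed limma over all genes. At an unadjusted p under 0.05, 8 were higher and 3 lower, where 8.47 and 19.5% of all genes were. The median was 0.52. Among those of smallest p were nuclear receptors and a homeobox gene. The bile acid and drug sensor gene Nr1i2, which encodes PXR, averaged 33.7 ± 9.19 TPM in MKO_PD1 and 11.7 ± 4.46 TPM in Cre_PD1. Prox1, a homeobox gene and corepressor of HNF4A and LRH-1, averaged 19.1 ± 9.54 TPM in MKO_PD1 and 5.42 ± 1.46 TPM in Cre_PD1. Ppara, the receptor gene of fatty acid metabolism, averaged 26.3 ± 6.41 TPM in MKO_PD1 and 8.24 ± 4.92 TPM in Cre_PD1. Onecut2, the paralog of Onecut1, named after its values were seen, was at 17.6 ± 7.49 TPM in MKO_PD1 and 42.8 ± 18.7 TPM in Cre_PD1, with the sign opposite to that of Onecut1 under both scalings and groups that were barely separate, at most 22.7 TPM in MKO_PD1 and at least 23.2 TPM in Cre_PD1.

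The partners and corepressors had a median log2 difference of -0.48, near that of all genes, with 2 of 13 above 0 (-0.03 and 6 of 13 with median-of-ratios scaling). Rxra, the retinoid receptor that pairs with CAR, was the 1 gene with separate groups on the higher side, at 124 ± 31.7 TPM in MKO_PD1 and 58.0 ± 17.6 TPM in Cre_PD1 (fold 2.14, SE of the log2 difference 0.33, limma adjusted p = 0.168). Its paralog Rxrb was at 37.3 ± 10.5 TPM in MKO_PD1 and 59.3 ± 3.28 TPM in Cre_PD1. The chaperone genes Hsp90aa1 and Hsp90ab1, whose products hold CAR in the cytoplasm, were at 238 ± 104 and 1180 ± 431 TPM in MKO_PD1 and 480 ± 69.9 and 2140 ± 357 TPM in Cre_PD1. Ppargc1a, the coactivator of HNF4A in fasting, was low in both groups, at 2.39 ± 0.55 TPM in MKO_PD1 and 2.45 ± 1.27 TPM in Cre_PD1, and was named after its values were seen.

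Genes known to be controlled by the factors mostly stood higher in MKO_PD1, as the hepatocyte markers did, and 0 of them passed limma over all genes. At an unadjusted p under 0.05 stood 9 HNF4A targets, 5 FOXA and C/EBPalpha targets, 5 NR5A2 targets and 5 NR1I3 targets on the higher side, and 1 FOXA and C/EBPalpha target on the lower. Of all genes, 8.47% were higher and 19.5% lower at that p. Of 10 HNF4A targets all 10 were above 0, with a median of 1.38, and 8 had separate groups, where 10.1% of all genes were separate and higher. The clotting factor genes F9 and F12 averaged 114 ± 55.0 and 549 ± 270 TPM in MKO_PD1 and 31.2 ± 13.6 and 180 ± 72.8 TPM in Cre_PD1, and the lipoprotein genes Mttp and Apom averaged 59.5 ± 21.3 and 391 ± 213 TPM in MKO_PD1 and 23.9 ± 8.05 and 118 ± 44.1 TPM in Cre_PD1. Of 7 FOXA and C/EBPalpha targets 6 were above 0, with a median of 1.67. Pck1, of gluconeogenesis, averaged 588 ± 171 TPM in MKO_PD1 and 212 ± 86.4 TPM in Cre_PD1, and Igfbp1, a fasting-induced secreted protein gene, 334 ± 76.7 TPM in MKO_PD1 and 158 ± 50.5 TPM in Cre_PD1. The 1 below 0 was Afp, the fetal liver gene that mature hepatocytes silence, at 8.76 ± 5.43 TPM in MKO_PD1 and 17.7 ± 1.42 TPM in Cre_PD1.

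NR5A2 targets had a median log2 difference of 1.596, with all 8 above 0 and 4 separate, where 10.1% of all genes were separate and higher. Cyp7a1, the rate-limiting enzyme of bile acid synthesis, averaged 152 ± 85.8 TPM in MKO_PD1 and 13.7 ± 10.7 TPM in Cre_PD1 (log2 difference 3.65, SE 0.79, limma adjusted p = 0.168), the largest difference among the targets of any factor here. The sterol export genes Abcg5 and Abcg8 averaged 35.4 ± 9.12 and 28.7 ± 10.5 TPM in MKO_PD1 and 14.4 ± 9.74 and 9.39 ± 5.86 TPM in Cre_PD1. NR1I3 targets had a median of 1.70 over the 7 of 9 that were tested. Cyp3a11 averaged 181 ± 55.1 TPM in MKO_PD1 and 32.5 ± 16.6 TPM in Cre_PD1, and Alas1, the first enzyme of haem synthesis, averaged 159 ± 21.9 TPM in MKO_PD1 and 64.6 ± 28.1 TPM in Cre_PD1. The classical CAR targets Cyp2b10 and Cyp2b9 were too low to test, at 0.574 ± 0.395 and 0.526 ± 0.570 TPM in MKO_PD1 and 0.167 ± 0.164 and 0.0943 ± 0.115 TPM in Cre_PD1. Por and Gadd45b, the 2 NR1I3 targets below 0 and, like Afp, named after their values were seen, had log2 differences of -0.04 and -0.47, which were 0.46 and 0.02 with median-of-ratios scaling.

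**Figure D4:**
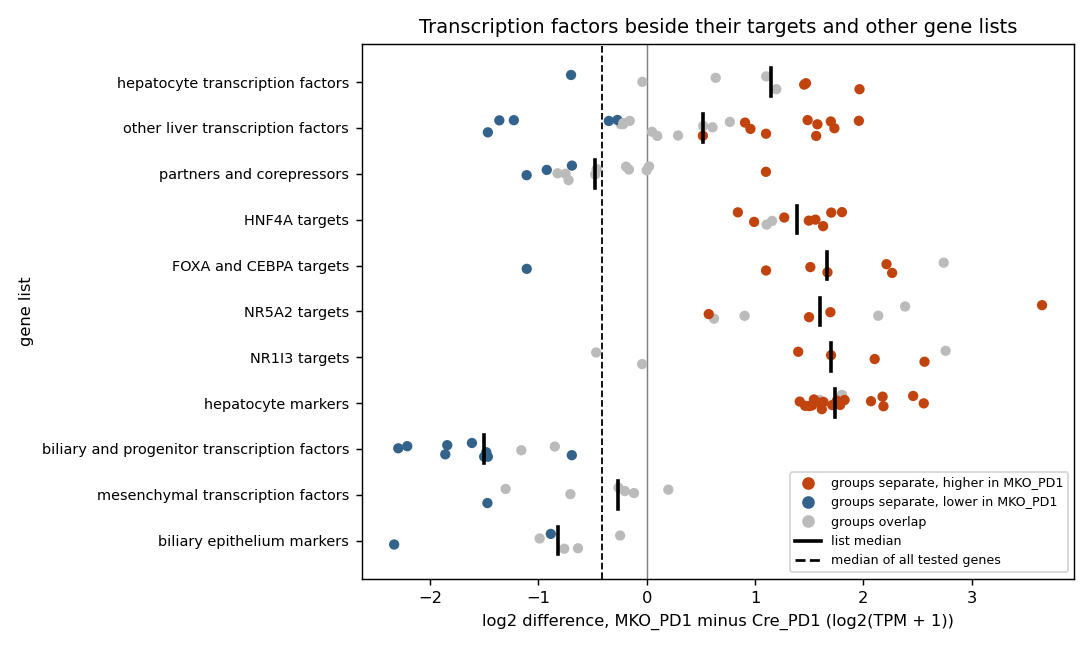
Log2 difference of each tested gene, MKO_PD1 minus Cre_PD1 on log2(TPM + 1) (horizontal axis), by gene list, coloured where the groups did not overlap, with the list median (black bar) and the all-gene median of -0.42 (dashed). The 8 transcription factors spread from -0.70 to 1.96 around a median of 1.15, between the hepatocyte markers at 1.73 and the bile duct and progenitor factors at -1.50.

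Genes whose pattern over the 6 tumours was among the most like that of each factor were found among 6461 genes by Pearson r on log2(TPM + 1), as a description, since all share the same libraries. Foxa3 was most like Osbpl1a (r = 0.999), Grhpr (0.999) and the retinol carrier gene Rbp4 (0.999). Cebpa was most like Tedc2 (r = 0.9996), the sterol enzyme gene Sc5d (0.999) and Ropn1l (0.999). Hnf4a was most like Stard4 (r = 0.992), Hgfac (0.991) and the desaturase gene Fads1 (0.986), and Onecut1 most like Lifr (0.996), Cib3 (0.984) and Slc25a23 (0.978). Nr5a2 was much like the complement protease gene Masp1 (r = 0.996) and Slc25a16 (0.996), and Nr1i3 most like Gpc4 (0.993), Cpped1 (0.992) and Slc25a16 (0.990). Foxa2 was most like the glycolytic isozyme gene Aldoc (r = 0.991), Chn2 (0.988) and Anxa7 (0.984), with Aldoc at a mean of 26.0 TPM in MKO_PD1 and 55.1 TPM in Cre_PD1. Foxa1 had the lowest coefficients, with Fam214a (r = 0.930), the forkhead gene Foxq1 (0.928) and Mup14 (0.849), the last of a multigene family whose reads may be divided among copies.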

How the data were processed

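Polyadenylated RNA of 6 tumours was sequenced as 1 bulk library each. Reads were aligned with STAR 2.7.10a to mm10 and counted with featureCounts 2.0.3 of Subread, per the submitters' processing notes. The deposited values are a length-normalised read signal: the table is named as TPM, but its columns sum to 70363 to 105281. How the authors made it is not given in the sources used here. Multiplied by GENCODE M21 exon length and divided by a shared constant of 8.03, values were whole reads within 0.001 for 29352 of 29798 genes (98.5%), all 8 factors included. The design assumed TPM, so each column was rescaled to 1000000.

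Genes with at least 1 TPM in 3 libraries (16506) were compared on log2(TPM + 1) by limma 3.58.1 in R 4.3.3, with a mean-variance trend, no block and Benjamini-Hochberg adjustment at 0.05. Single values had exact two-sided permutation tests (scipy 1.17.1), which cannot go below 0.1. No label gives a batch or says that replicate numbers pair tumours. The factors, the 15 other gene lists and the tests were chosen with earlier results of these data known. Named are the factors, up to 4 genes of smallest p per list, and the 3 most similar genes per factor of mean at least 10 TPM and a log2 range of at least 1. The fit was tested on simulated data. The alternatives were other pseudocounts, filters, scalings, limma options, a replicate block, a threshold of 0.1 and each library left out. The values as deposited, voom on recovered reads, and the fit without MKO_PD1 replicates 1 and 3 were added after seeing the data. The sources used here mention no molecular identifiers. Some genes that the rule would name are not reported here.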

Additional observations from a re-analysis of the deposited data

How the results depend on the processing

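The median log2 difference of the 8 factors stayed above 0 in every alternative run, from 0.22 without MKO_PD1 replicates 1 and 3 to 1.78 with limma voom on recovered reads, and was 1.62 with median-of-ratios scaling. With one library left out it ran from 0.78 to 1.59, the highest without the library labelled MKO_PD1 replicate 2. The count of factors passing ran from 0 to 7 with one library left out, the 7 without that library, and was 0 in every other alternative that gave a value. The count of all genes passing ran from 0 to 7269 with one library left out. It was 1 with median-of-ratios scaling, 0 with no filter, a filter of 5 TPM, quantile normalization, voom, and without MKO_PD1 replicates 1 and 3, where MKO_PD1 has 1 tumour and its spread is assumed to be that of Cre_PD1. No label says that replicate numbers pair the tumours. Deviations of same-numbered tumours correlated at -0.42, -0.27 and 0.05 across genes, and 1 of 3 correlated best with its own number. With 3 tumours in each group these values cannot show whether the tumours were paired. With a replicate block 0 factors and 0 genes passed.

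The sign of Foxa1 was not settled. It was -0.04 as reported and turned to 0.44 with median-of-ratios scaling, 0.33 with quantile normalization, 0.41 with voom, 0.11 with the hepatocyte markers left out of the totals and 0.076 with the values as deposited, and ran from -0.32 to 0.18 with one library left out. Hnf4a turned to -0.04 without MKO_PD1 replicates 1 and 3. Foxa2 stayed below 0, from -0.80 to -0.20, and the other 5 factors stayed above 0. Ratios to the hepatocyte markers kept their sign in all 9 alternatives each. Sample quality weights gave no value, since their estimate did not converge. The cause of these differences was not tested. Each factor had at least 49 reads in every library.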
